A study of Mus musculus with 8 samples.

Results

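Chemokines and their receptors were taken as every gene whose symbol follows the standard chemokine pattern (Ccl, Cxcl, Cx3cl or Xcl for ligands, and Ccr, Cxcr, Cx3cr, Xcr or Ackr for receptors, each followed by a number). Cxcl12 was left out of the set and is given among the pathway genes. The rule found 59 genes among 50462 gene identifiers, 48855 of which have a symbol. The set holds 37 ligands, 18 signalling receptors and 4 atypical receptors.

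Chemokines are small secreted proteins that guide moving cells, mostly leukocytes, along a gradient. They act on receptors that span the membrane and couple to inhibitory G proteins, and most ligands share receptors with others. Atypical receptors (Ackr) bind chemokines without classical G protein signalling, and they take up, carry or remove the ligand instead. Healthy articular cartilage has no blood vessels and few cells other than chondrocytes, whereas bone marrow, synovium and vessel walls next to it carry many of these receptors.

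Gene expression was measured by RNA-seq in cartilage caps from the medial knee of wild-type male C57BL/6J mice, with 1 library per mouse. The naïve group (n = 4) had no treatment and was sampled at day 0, at 11 weeks of age. The DMM group (n = 4) had surgery at that age, in which the ligament holding the medial meniscus of the left knee was cut, a model of post-traumatic osteoarthritis, and was sampled at day 42, at 17 weeks. A sham-operated group was not analysed here, and effects of surgery, anaesthesia, analgesia and ageing from 11 to 17 weeks cannot be told apart. Total estimated counts were 12479443 to 16548002 per library, and the chemokine genes took 0.0603% to 0.0758% of them. A single identifier without a symbol, ENSMUSG00000119584, held 10.1% to 17.9% of the counts in naïve and 4.31% to 8.65% in DMM libraries, which bears on scaling by the total. Values below are normalised counts (estimated counts divided by the size factor of the library) unless stated.

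The labels give the cell type as chondrocyte. All 8 genes of a chondrocyte marker list were detected, and their summed normalised count was 34063 to 65719 in naïve and 85686 to 157660 in DMM libraries. Markers of blood and marrow cells were also abundant. The neutrophil lineage list (12 genes, none at 0) summed to 130144 to 195206 in naïve and 57239 to 117575 in DMM libraries, with 11 of 12 genes called lower. Lists for fibroblasts, osteoblasts and endothelial cells summed higher in every DMM library than in any naïve library. In such tissue, fewer cells of a type and less RNA per cell cannot be told apart.

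Expression of the chemokine system in these caps was dominated by a few genes. Only 16 of the 59 members had a mean of 100 normalised counts or more, 18 never reached 10 estimated counts in a library, and Ccl26 and Ccr8 had no count in any library, which allows up to 3 counts in each. DESeq2 gave 33 members an adjusted p, and the other 26 had no count or fell below its filter on low means. Of these 33, 6 were called higher and 1 was called lower in DMM libraries at an adjusted p of 0.05 or less and 1.5-fold or more. Among all 17760 genes tested, 13.7% were called, 7.75% higher and 5.92% lower. The median log2 fold change was 0.02 over the 33 members and -0.02 over all genes tested. By the adjusted p alone, at any fold, 12 of the 33 members passed, beside 22.6% of all genes tested. For 8 of the 33 members the values of naïve and DMM libraries did not overlap, beside 22.2% of all genes tested. The edgeR test called 5 of 34 members, all higher, beside 11.3% of 18445 genes.

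The calls were counted by the role of each gene, and differences between roles were not tested. Of the ligands outside the main CC and CXC inflammatory groups, all 3 with an adjusted p were called higher (Cxcl14, Cxcl16 and Cx3cl1). Of the 4 atypical receptors, 2 were called higher (Ackr2 and Ackr3). Of the 14 signalling receptors with an adjusted p, DESeq2 called 0 higher (0 also at an unadjusted p under 0.05, and 0 with edgeR) and 1, Ccr3, lower. Of the 9 CC ligands with an adjusted p, 1 was called, Ccl21a. The plot of log2 fold changes by role shows where each estimate lies.

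**Figure D1:**
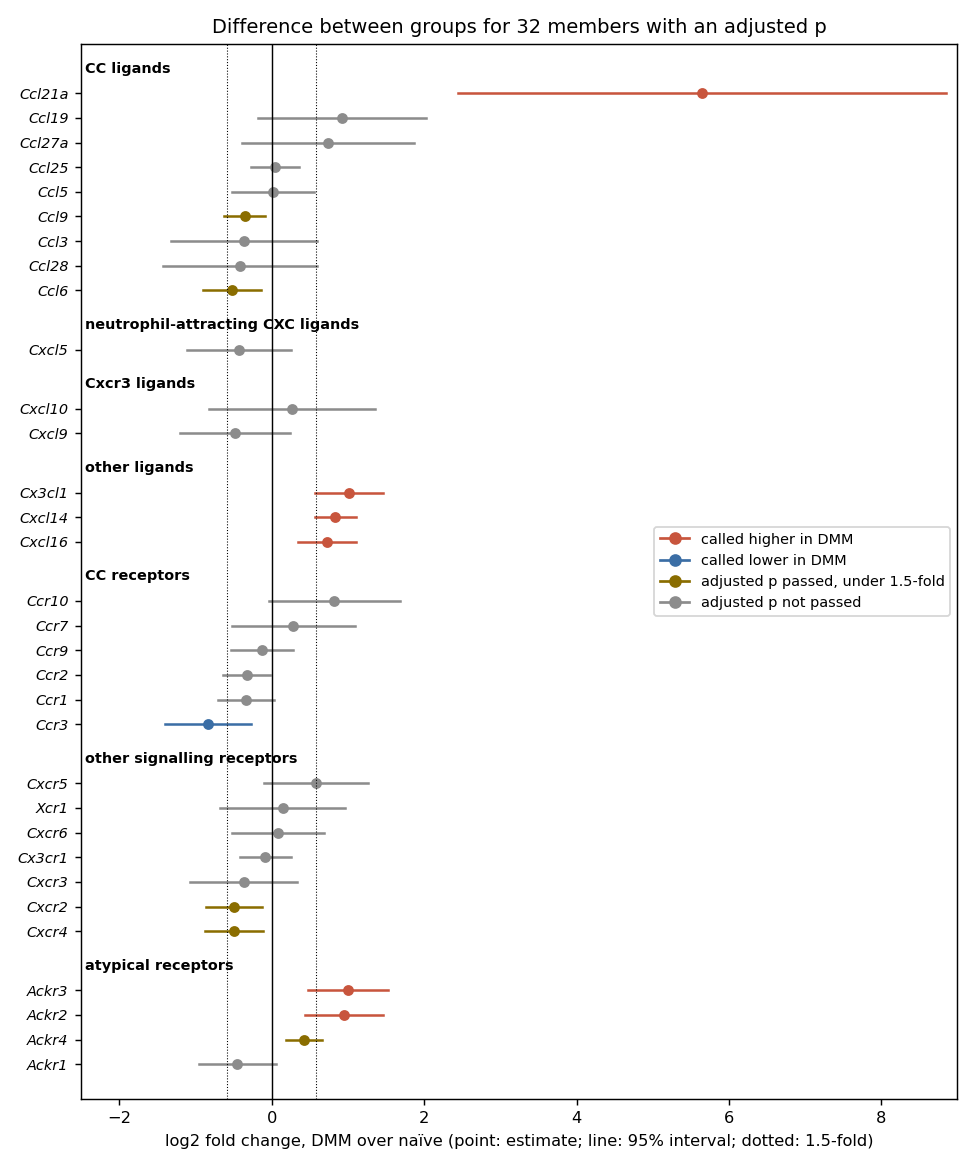
Log2 fold change of DMM over naïve (horizontal axis) for 32 members with an adjusted p, grouped by role; points are DESeq2 estimates, lines are 95% intervals and dotted lines mark 1.5-fold. Called increases lie among the other ligands and the atypical receptors, apart from Ccl21a with its wide interval from 2.44 to 8.85, and Ccr3 is the single called decrease.

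Levels were compared between genes per kilobase of the longest protein-coding transcript. Ccl6, a CC ligand of myeloid cells, had the highest mean of the ligands in naïve libraries, at 994 normalised counts per kb, and was at 690 in DMM libraries. Cxcl14, a homeostatic chemokine of skin and stroma, was at 468 in naïve and had the highest mean in DMM libraries, at 832 per kb. The order of these ligands thus turned between the groups, while their ranges over all 8 libraries overlapped (513 to 1214 for Ccl6 and 433 to 1026 for Cxcl14). Over all libraries, Ccl25, Ccl9 and Ccl5 followed at means of 133, 129 and 102 per kb, with ranges that overlapped. Ccl21a went from 4.08 per kb in naïve to 202 in DMM libraries, so that a mean over both groups describes neither. Among receptors the order was Cxcr4 (514 per kb), Cxcr2 (282), Ccr2 (259), Ackr3 (140), Ackr4 (136) and Ccr1 (135). The ranges over libraries overlapped between each neighbour in this order. The first 3 are receptors of marrow leukocytes.

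**Figure D2:**
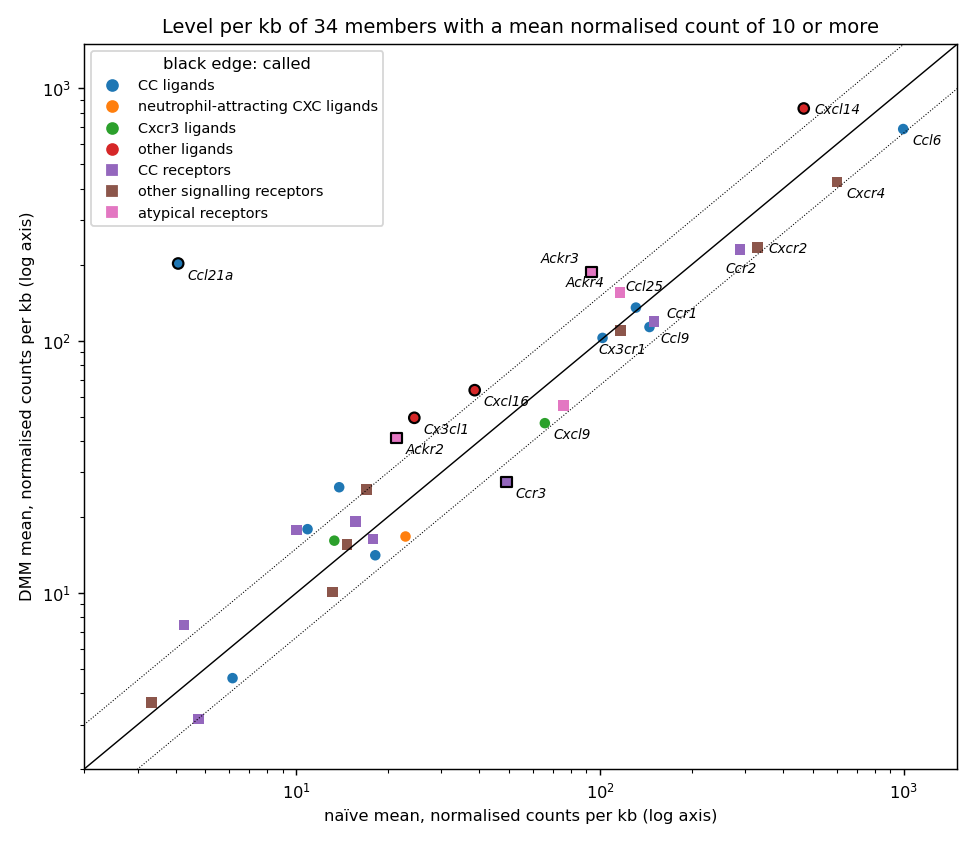
Mean level in naïve (horizontal) and DMM libraries (vertical), both in normalised counts per kb on log axes, for 34 members with a mean of 10 normalised counts or more; circles are ligands, squares are receptors, black edges mark called genes, the solid line marks equal levels and dotted lines 1.5-fold. Most members lie between the dotted lines, Ccl21a lies far above them (4.08 against 202 per kb), and Ccl6, Cxcl14 and Cxcr4 have the highest levels.

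Cxcl14 (GRCm38, chr13:56288643-56296551) had the smallest adjusted p of the set. It stood at 791, 927, 858 and 842 normalised counts in the naïve libraries and at 1552, 1875, 1366 and 1291 in the DMM libraries. Every DMM library lay above every naïve library. Cxcl14 rose 1.78-fold (0.83 ± 0.14 SE on the log2 scale, DESeq2 adjusted p = 1.21e-07).

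Cx3cl1 (chr8:94772009-94782427) encodes fractalkine, a membrane-bound ligand that can be shed and that endothelial, stromal and neuronal cells make. It was at 76.5, 89.1, 99.5 and 59.0 normalised counts in naïve and at 139, 219, 161 and 135 in DMM libraries. The groups did not overlap, and DMM 2 was the highest. Cx3cl1 rose 2.02-fold (1.01 ± 0.23 SE on the log2 scale, DESeq2 adjusted p = 0.000194).

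Cxcl16 (chr11:70453983-70459984) is the other ligand made with a membrane anchor, and it also binds oxidised lipoprotein. The naïve libraries held 80.03, 101, 113 and 122 normalised counts and the DMM libraries 180, 200, 142 and 164. Again no DMM library fell within the naïve range. Cxcl16 rose 1.65-fold (0.72 ± 0.19 SE on the log2 scale, DESeq2 adjusted p = 0.00202).

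The other ligands of that role, Cxcl13, Cxcl17 and Xcl1, never reached 10 estimated counts in a library. Summed over the 6 genes, the role held 949 to 1131 normalised counts in naïve and 1598 to 2306 in DMM libraries, most of which came from Cxcl14. Part of a fibroblast marker list was also higher in DMM libraries. The fibroblast list summed to 159489 to 245341 in naïve and 340723 to 507744 in DMM libraries, with 5 of 8 genes called higher (none at 0). Most of that sum came from Col1a1, which osteoblasts also make, and the other 3 genes (Pi16, Prg4 and Htra4) had log2 fold changes of -0.35, -0.54 and -0.39. The endothelial list summed to 4172 to 4839 and 5539 to 6321, with 4 of 8 called higher (none at 0). The part of either cell type in the change of Cxcl14, Cx3cl1 and Cxcl16 was not tested.

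**Figure D3:**
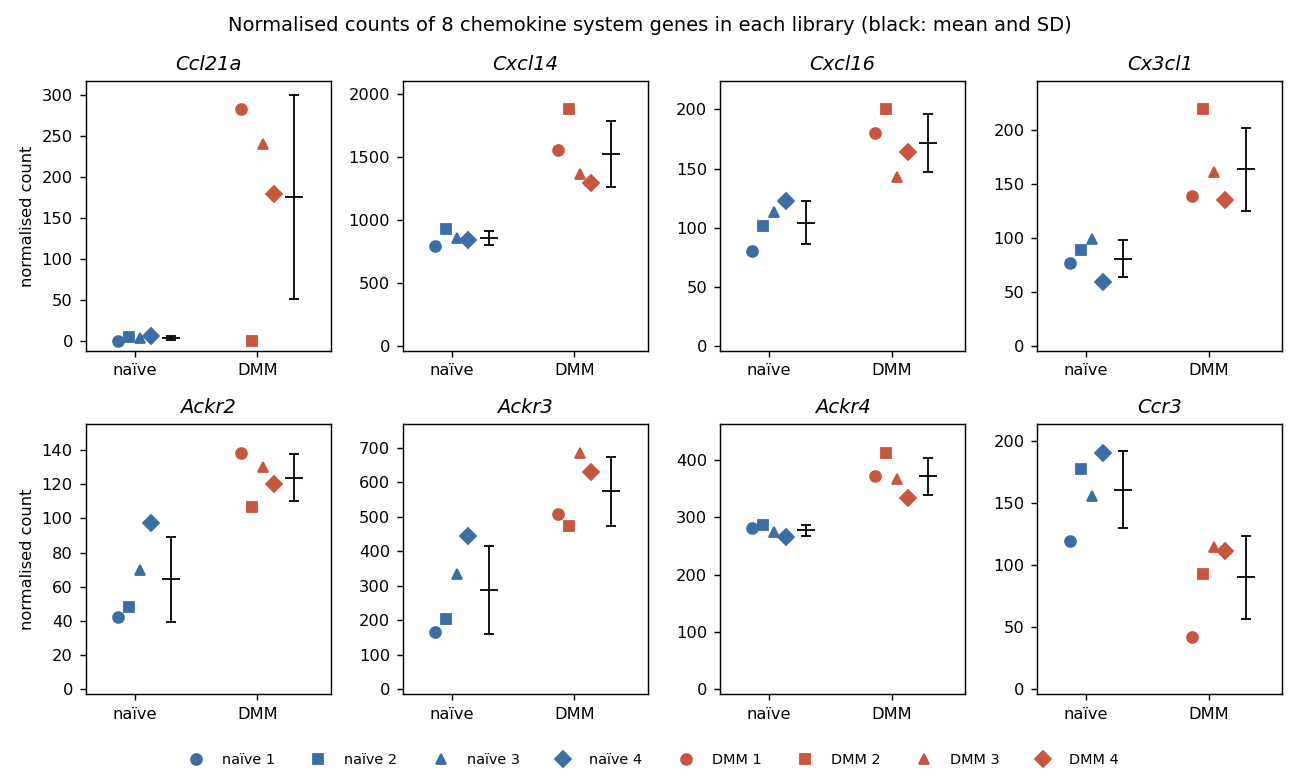
Normalised counts (vertical axes, each starting at or just below 0) of the 7 called members and of Ackr4 in each of the 4 naïve and 4 DMM libraries, 1 symbol per replicate number, with the mean and SD of each group in black. Cxcl14, Cxcl16, Cx3cl1, Ackr2, Ackr3 and Ackr4 are higher in all DMM libraries than in any naïve library, Ccr3 is lower in all of them, and Ccl21a is high in DMM 1, 3 and 4 and at 0 in DMM 2.

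Ackr3 (chr1:90203980-90216751), formerly named Cxcr7, binds Cxcl12 and removes it. Normalised counts were 166, 204, 334 and 444 in naïve and 508, 472, 686 and 629 in DMM libraries. The highest naïve library (444) lay just below the lowest DMM library (472). The estimated change was 1.0003 ± 0.27 (SE) on the log2 scale (DESeq2 adjusted p = 0.00215).

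Ackr2 (chr9:121898355-121911074) binds and degrades many inflammatory CC chemokines. The values were 42.2, 47.9, 69.6 and 97.5 normalised counts in naïve and 138, 106, 130 and 120 in DMM libraries. The groups did not overlap. Ackr2 rose 1.93-fold (0.95 ± 0.26 SE on the log2 scale, DESeq2 adjusted p = 0.00306). In both Ackr2 and Ackr3, naïve 3 and 4 lay above naïve 1 and 2.

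Ackr4 (chr9:104084157-104126933) takes up Ccl19, Ccl21 and Ccl25. It was at 281, 287, 274 and 265 normalised counts in naïve and at 372, 413, 367 and 333 in DMM libraries, without overlap. The rise was 1.34-fold (log2 fold change 0.42, SE 0.12, DESeq2 adjusted p = 0.00427), under the fold threshold.

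Ackr1 (chr1:173331886-173333750) is carried by the endothelium of venules and by erythroid cells. Its counts were 112, 110, 64.2 and 62.4 in naïve and 69.7, 59.1, 70.0 and 56.0 in DMM libraries, and the groups overlapped. The estimate was -0.45 on the log2 scale (SE 0.26, DESeq2 adjusted p = 0.215). Of the 31-base words of Ackr1, 23.0% also occur in other genes, with Cadm3 sharing the most, so its counts are less certain. Per 1000 counts of the endothelial list, Ackr1 was at 12.9 to 26.5 in naïve and 9.35 to 12.6 in DMM libraries, which did not overlap. The erythroid list (8 genes, none at 0) summed to 142717 to 282696 in naïve and 73448 to 159108 in DMM libraries, with 7 called lower, and its part in the values of Ackr1 was not tested. The 4 atypical receptors together held 602 to 870 normalised counts in naïve and 1050 to 1253 in DMM libraries. Like the fibroblast and endothelial lists, the osteoblast list was higher in every DMM library than in any naïve library. It summed to 20137 to 26075 in naïve and 40020 to 72271 in DMM libraries, with 8 of 8 called higher (none at 0). Part of the chondrocyte list (5 of 8 called higher) was higher in DMM libraries too. Its other genes, Col9a1, Matn3 and Hapln1, did not pass, with log2 fold changes of -0.36, -0.29 and 0.79. The part of any of these lists in the difference of Ackr2 and Ackr3 was not tested.

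Promoters were searched for motifs, and those of called genes that held a match are shown so that the letters and their place can be read. Windows of 300 bases (250 before to 50 after the start, RefSeq, GRCm38.p6) were found for 44 of the 59 members, 51 windows in all. They were searched for 4 motifs, on both strands except for the NF-kappaB letters, which were searched only as written. For the core of an NF-kappaB site the letters were GGGNNNNNCC. The letters for the stress-responsive factor AP-1 were TGANTCA. The core promoter box was searched as TATAAA and the site of the mechanically regulated TEAD factors as GGAATG. Capitals mark the letters of a match, and NF-kappaB letters on the opposite strand were not looked for. The windows are Ackr2 chr9:121898105-121898404 (plus strand), Ackr3 chr1:90203730-90204029 (plus), Cx3cl1 chr8:94771930-94772229 (plus) and Ccr3 chr9:124021721-124022020 (plus).
Ackr2: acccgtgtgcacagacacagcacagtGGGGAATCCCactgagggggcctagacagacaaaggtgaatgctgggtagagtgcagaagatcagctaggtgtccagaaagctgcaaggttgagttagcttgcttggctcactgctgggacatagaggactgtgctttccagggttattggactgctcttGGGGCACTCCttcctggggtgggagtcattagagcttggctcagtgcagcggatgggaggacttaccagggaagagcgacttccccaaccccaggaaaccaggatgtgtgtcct
Ackr3: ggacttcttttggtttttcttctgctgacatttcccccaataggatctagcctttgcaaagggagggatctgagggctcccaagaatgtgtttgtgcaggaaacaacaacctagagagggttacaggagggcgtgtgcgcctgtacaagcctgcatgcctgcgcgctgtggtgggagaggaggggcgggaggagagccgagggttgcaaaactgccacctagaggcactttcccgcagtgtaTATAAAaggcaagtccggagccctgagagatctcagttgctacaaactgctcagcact
Cx3cl1: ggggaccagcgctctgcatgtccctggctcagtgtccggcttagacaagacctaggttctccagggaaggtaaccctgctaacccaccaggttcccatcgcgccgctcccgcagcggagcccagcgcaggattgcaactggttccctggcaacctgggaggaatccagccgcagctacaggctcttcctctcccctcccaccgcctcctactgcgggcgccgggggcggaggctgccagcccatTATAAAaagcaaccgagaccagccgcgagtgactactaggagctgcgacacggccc
Ccr3: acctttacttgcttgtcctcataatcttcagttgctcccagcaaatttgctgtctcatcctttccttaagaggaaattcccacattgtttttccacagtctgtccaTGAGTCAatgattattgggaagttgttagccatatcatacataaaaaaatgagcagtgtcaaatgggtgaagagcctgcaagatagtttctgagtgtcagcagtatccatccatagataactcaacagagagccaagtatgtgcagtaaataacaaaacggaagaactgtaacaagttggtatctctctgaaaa

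The Ackr2 window holds GGGNNNNNCC 2 times, with first bases 224 and 64 bases before the start. TATAAA lies 8 bases before the annotated start of Ackr3 and 6 bases before that of Cx3cl1. The Ccr3 window holds TGANTCA 144 bases before the start. The windows of Cxcl14 and Ccl21a held none of the 4 motifs as searched. Read only as written, the NF-kappaB letters were found in 20 of the 51 member windows and in 38.0% of 32851 windows of all genes. Those for AP-1 were found in 9 of 51 and 7.81% of all, the core promoter box in 14 of 51 and 13.6% of all, and the TEAD letters in 6 of 51 and 14.7% of all. Ccl27a and Ccl27b, which count among the NF-kappaB and AP-1 matches, have several windows each. Some of these overlap, so the windows are not independent. A match describes letters in the window only.

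Ccl21a (chr4:42772860-42773993), a ligand of Ccr7 that lymphatic endothelium and lymphoid stroma make, had the largest fold of the set and the most uneven values. It stood at 0, 5.32, 3.21 and 5.67 normalised counts in naïve and at 284, 0, 240 and 180 in DMM libraries. DMM 2 was at 0, so the groups overlapped. On the log2 scale the estimate was 5.64 (SE 1.64, DESeq2 adjusted p = 0.00492), and with the replicate number as a block the adjusted p was 0.0542.

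Mice carry several near-identical copies of this gene, and 80.6% of the 31-base words of Ccl21a occur in other genes, with Gm21541 sharing the most. The estimated counts of a copy are therefore uncertain. Summed over the 5 copies (Ccl21a, Ccl21b, Gm10591, Gm13304 and Gm21541), the estimated counts were 2, 4, 3 and 7 in naïve and 458, 14, 292 and 246 in DMM libraries. DMM 2 then lay above all naïve libraries, though far below the other DMM libraries. A fit on the sum, an alternative chosen after seeing the data, gave 5.57 on the log2 scale (SE 0.95, DESeq2 adjusted p = 3.617e-07). The mean of the summed normalised counts was 4.56 ± 2.69 in naïve and 214 ± 150 in DMM libraries (SD, n = 4).

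**Figure D4:**
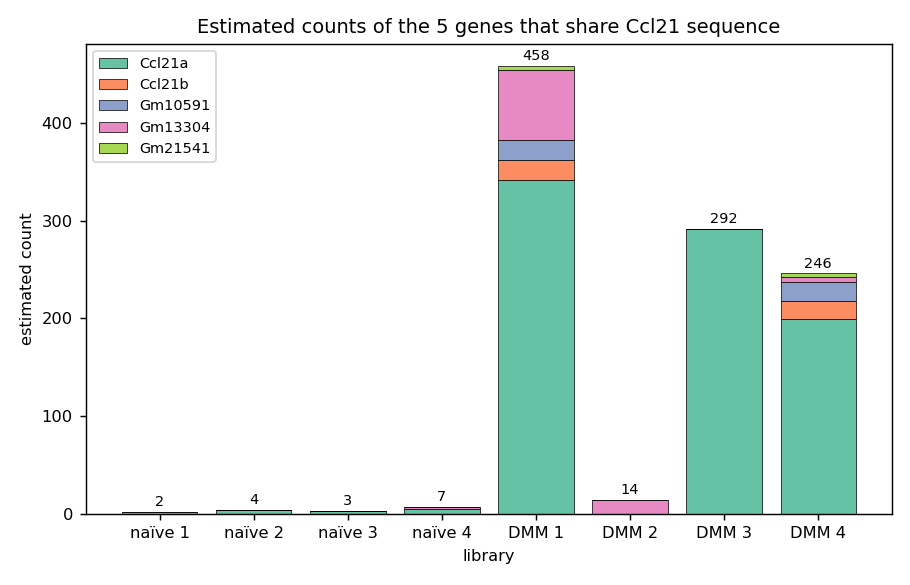
Estimated counts (vertical axis) of the 5 genes that share Ccl21 sequence, stacked for each of the 8 libraries, with the sum above each bar. The naïve libraries have 2 to 7 counts in all, DMM 1, 3 and 4 have 246 to 458, and DMM 2 has 14, all of them given to Gm13304.

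The 9 CC ligands with an adjusted p also include the myeloid ligands Ccl6 and Ccl9, both of which bind Ccr1. Ccl6 was at 1536, 1748, 1295 and 1147 normalised counts in naïve and at 739, 849, 1085 and 1301 in DMM libraries. The groups overlapped through DMM 4. Its change of -0.53 on the log2 scale (SE 0.19, DESeq2 adjusted p = 0.0325) was under the fold threshold, and it reached -0.68 without DMM 4 and -0.62 without naïve 4, past both thresholds.

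Ccl9 was at 416, 460, 421 and 450 normalised counts in naïve and at 381, 295, 294 and 392 in DMM libraries, without overlap. This difference came to -0.36 on the log2 scale (SE 0.14, DESeq2 adjusted p = 0.0477). Ccl25, known from the thymus and gut, hardly differed, at 138, 149, 115 and 153 in naïve and 145, 153, 138 and 136 in DMM libraries. Its log2 fold change was 0.05 (95% interval -0.27 to 0.36, DESeq2 adjusted p = 0.884).

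Several inducible CC and CXC ligands were low or near 0, though not all. Ccl5, which activated T cells and other leukocytes make, was at 43.1 to 65.1 normalised counts in naïve and 34.4 to 64.7 in DMM libraries (log2 fold change 0.02, DESeq2 adjusted p = 0.981). Ccl2, the main monocyte attractant, was at 1.76 to 9.07 normalised counts in naïve and 9.88 to 11.8 in DMM libraries and received no adjusted p from DESeq2 (edgeR adjusted p = 0.175). Ccl3 was at 11.3 to 15.8 and 5.38 to 17.1, and Ccl4, Ccl7, Ccl11, Ccl12, Ccl17 and Ccl20 never reached 10 estimated counts in a library. Of the 5 CXC ligands that attract neutrophils, only Cxcl5 had an adjusted p. Cxcl1, Cxcl2, Cxcl3 and Cxcl15 never reached 10 estimated counts, so a fall or a small rise in them was not detectable at this depth. Cxcl5 was at 23.8 to 50.1 normalised counts in naïve and 19.9 to 37.9 in DMM libraries (log2 fold change -0.43, DESeq2 adjusted p = 0.418).

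Cxcl9, an interferon-induced ligand of Cxcr3 on T cells, was at 147, 196, 191 and 227 normalised counts in naïve and at 122, 276, 80.7 and 65.0 in DMM libraries. DMM 2 was the highest of all 8 libraries and the other DMM libraries were the lowest. Over all libraries the log2 fold change was -0.49 (SE 0.37, DESeq2 adjusted p = 0.382), and without DMM 2 it was -1.09 (DESeq2 adjusted p = 0.000456), past both thresholds. Cxcl10, induced by the same cytokine, was also highest in DMM 2 (35.5) but at 31.04 in naïve 3, with a range of 6.59 to 35.5 in DMM libraries (DESeq2 adjusted p = 0.801). Cxcl11 was at 2.14 to 12.9 normalised counts over all libraries. Cxcr3 itself was at 19.3 to 26.6 in naïve and 12.9 to 19.8 in DMM libraries (log2 fold change -0.37, DESeq2 adjusted p = 0.518).

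Ccr3 (chr9:124021972-124031689), the eotaxin receptor that marks eosinophils, was the receptor called lower. It was at 120, 177, 155 and 190 normalised counts in naïve and at 42.3, 92.4, 114 and 111 in DMM libraries. The groups did not overlap, and naïve 1 lay close to DMM 3. Ccr3 fell to 0.56 of its naïve level (-0.83 on the log2 scale, SE 0.29, DESeq2 adjusted p = 0.0216). The edgeR adjusted p was 0.0680, and the call was lost without naïve 2 (0.0734) or naïve 4 (0.0691) in DESeq2. The list for eosinophils, basophils and mast cells (8 genes, none at 0) summed to 3380 to 10534 in naïve and 1061 to 6752 in DMM libraries, with 3 called lower (Mcpt8, Cpa3 and Ms4a2), which are genes of basophils and mast cells. The eosinophil granule genes Prg2 and Epx, which make up most of the sum, did not pass (log2 fold changes -1.06 and -0.96, DESeq2 adjusted p = 0.363 and 0.464). The lowest library of that list, DMM 1, was also the lowest for Ccr3, and the part of these cells in the change was not tested.

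The receptors of neutrophils and of marrow retention had lower means in DMM libraries but stayed under 1.5-fold. Cxcr2, through which neutrophils respond to CXC ligands, was at 1004, 1212, 1024 and 774 normalised counts in naïve and at 573, 570, 792 and 912 in DMM libraries. Naïve 4 lay below DMM 3 and 4, so the groups overlapped. Its estimate was -0.49 on the log2 scale (SE 0.19, DESeq2 adjusted p = 0.0412), and it was -0.60 without naïve 4 and -0.63 without DMM 4, past both thresholds.

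Cxcr4, which holds leukocytes and progenitors in the marrow through Cxcl12, was at 1201, 1412, 978 and 754 normalised counts in naïve and at 614, 877, 829 and 756 in DMM libraries. Its groups overlapped through naïve 4. The estimated change was -0.50 on the log2 scale (SE 0.19, DESeq2 adjusted p = 0.0441), and without naïve 4 it was -0.64, past both thresholds. With edgeR, the adjusted p was 0.0833 for Cxcr2 and 0.0831 for Cxcr4, and for Ccl6 and Ccl9 it was 0.0756 and 0.0666.

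Cxcr2 was also set against markers of the neutrophil lineage, most of which are granule genes that neutrophil precursors make as well. Per 1000 counts of the neutrophil lineage list, Cxcr2 was at 6.16, 6.21, 5.65 and 5.95 in naïve and at 10.0, 7.37, 6.85 and 7.76 in DMM libraries. This ratio was higher in every DMM library than in any naïve library. Set against Mmp8 alone, a late granule gene of that list (chosen after its values were seen), Cxcr2 was at 357 to 392 per 1000 counts in naïve and 336 to 605 in DMM libraries, and the groups overlapped. Mmp8 was the only gene of the list not called lower (log2 fold change -0.58, DESeq2 adjusted p = 0.0692). Cxcr2 was not set against any other gene of the list alone, so this overlap rests on a single chosen gene.

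Monocyte and macrophage receptors did not pass the test with all libraries. Ccr2, the receptor that brings monocytes out of the marrow, was at 1514, 1441, 1833 and 1825 normalised counts in naïve and at 1280, 1215, 1083 and 1682 in DMM libraries. Only DMM 4 lay within the naïve range (log2 fold change -0.33, 95% interval -0.63 to -0.03, DESeq2 adjusted p = 0.112). Ccr1 was at 468, 443, 410 and 383 in naïve and at 283, 258, 341 and 466 in DMM libraries (log2 fold change -0.34, 95% interval -0.71 to 0.03, DESeq2 adjusted p = 0.195). DMM 4 was again the library that overlapped the naïve group. Without DMM 4, Ccr1 was at -0.53 and Ccr2 at -0.47 (DESeq2 adjusted p = 0.00563 and 0.00521), still under 1.5-fold.

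Cx3cr1, the fractalkine receptor of monocytes and tissue macrophages, was at 432, 470, 598 and 596 in naïve and at 527, 602, 393 and 454 in DMM libraries. The groups overlapped. The monocyte and macrophage list (12 genes, none at 0) summed to 26078 to 35253 in naïve and 19174 to 24845 in DMM libraries, with 3 called lower (Lyz2, Cd163 and Ly6c2). Most of that sum came from Lyz2, with means of 20997 in naïve and 13939 in DMM libraries. The other genes of the list did not pass. Cd68, Csf1r, Cd14, Ms4a7 and C1qa had log2 fold changes of 0.09, 0.20, 0.31, 0.23 and 0.004. Those of Adgre1, Mrc1, C1qb and C1qc were below 0. Per 1000 counts of the whole list (mostly of Lyz2), Ccr2, Ccr1 and Cx3cr1 overlapped between the groups (Ccr2 at 40.9 to 70.0 in naïve and 43.6 to 70.9 in DMM libraries).

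Apart from Ackr2 and Ccl21a, the members with a mean between 10 and 100 normalised counts and a mean fold of 1.5 or more did not pass. Ccl19, the second ligand of Ccr7, stood at 0.92 on the log2 scale (DESeq2 adjusted p = 0.255) and Ccl27a, known from skin, at 0.74 (DESeq2 adjusted p = 0.397). Both share over 50% of their 31-base words with other genes (58.8% and 57.0%), which makes their counts uncertain. Ccr10, the receptor of Ccl27, stood at 0.82 (DESeq2 adjusted p = 0.180) and Cxcr5, the follicle-homing receptor of B cells, at 0.58 (DESeq2 adjusted p = 0.237). Ccr6 and Ccr4, with 0.78 and -0.59, had no adjusted p from DESeq2.

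The lymphoid members Cxcr5, Ccr7 and Ccl19 varied within the DMM group. In naïve libraries they were at 30.0 to 68.6, 20.3 to 47.5 and 6.42 to 13.3 normalised counts. Cxcr5 was at 85.4, 105, 61.7 and 39.7 normalised counts in DMM 1 to 4, Ccr7 at 47.3, 58.0, 22.2 and 24.4, and Ccl19 at 22.4, 39.8, 9.88 and 9.03. DMM 1 and 2 were the highest DMM libraries for all 3 genes. The B cell list (10 genes, none at 0) was likewise highest in these libraries, at 6704, 8692, 4090 and 3747 in DMM 1 to 4. Per 1000 counts of that list, Cxcr5 was at 7.07 to 14.0 in naïve and 10.6 to 15.1 in DMM libraries, and the groups overlapped.

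**Figure D5:**
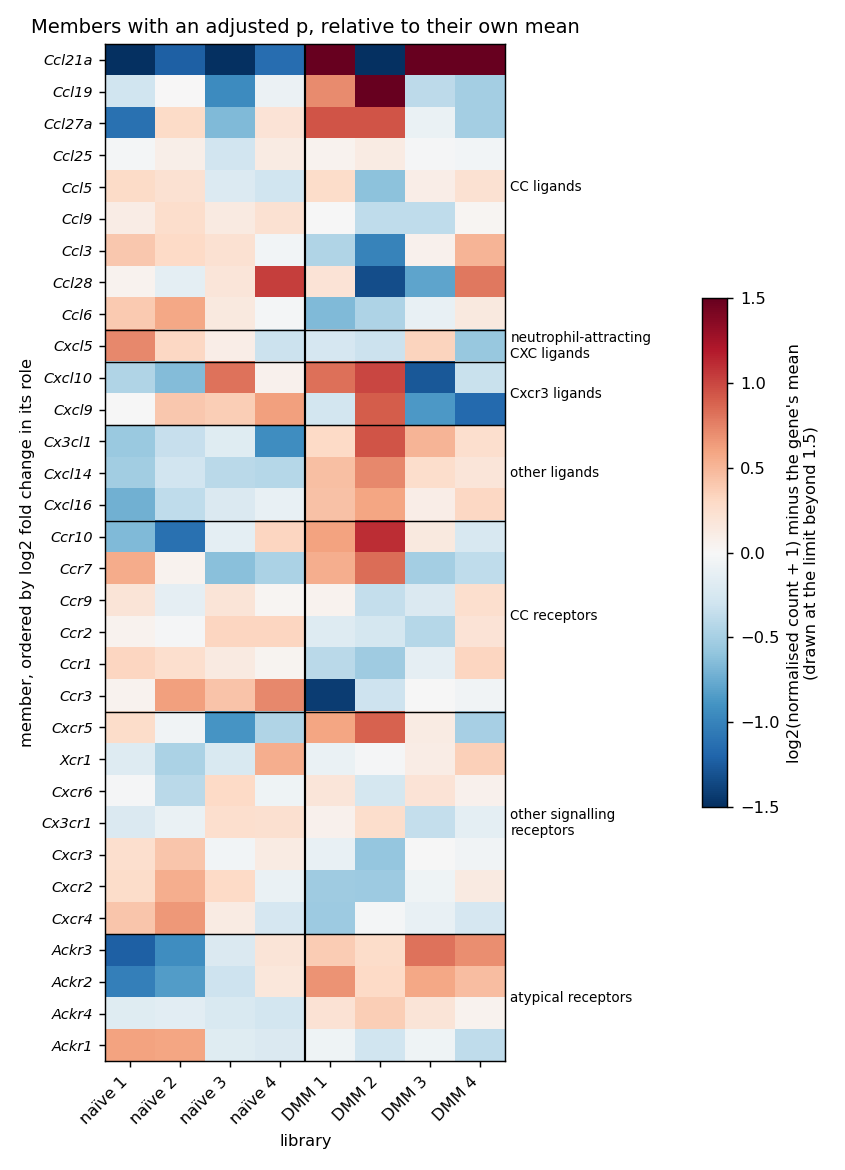
Log2 of the normalised count plus 1, minus the mean of the gene over the 8 libraries (colour), for 32 members with an adjusted p (rows, by role) in each library (columns). Cxcl14, Cxcl16, Cx3cl1, Ackr2, Ackr3 and Ackr4 are redder in the DMM columns, Ccl21a is so in DMM 1, 3 and 4 but dark blue in DMM 2, and Ccl19, Ccr7, Cxcr5 and Cxcl10 are red in DMM 1 and 2 and blue or pale in DMM 3 and 4.

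Several of the ligands that rose have one main signalling receptor, and its values can be set beside them. For Cx3cl1 (log2 fold change 1.01), the receptor Cx3cr1 changed by -0.09 on that scale (95% interval -0.42 to 0.25, DESeq2 adjusted p = 0.784). For Cxcl16 (0.72), the receptor Cxcr6 was at 21.3 to 35.3 normalised counts in naïve and 23.7 to 32.9 in DMM libraries, with a log2 fold change of 0.08 (95% interval -0.52 to 0.69, DESeq2 adjusted p = 0.893). For Ccl21a, the receptor Ccr7 had a log2 fold change of 0.28 (95% interval -0.52 to 1.09, DESeq2 adjusted p = 0.697). Ccr9, the receptor of Ccl25, a ligand that hardly differed (0.05), had a log2 fold change of -0.13 (95% interval -0.53 to 0.28, DESeq2 adjusted p = 0.734). Whether a ligand changed by more than its receptor was not tested.

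Other genes of the pathway were taken from 5 lists. Of their 57 genes, 56 had an adjusted p, 2 were called higher and 6 lower, beside 7.75% and 5.92% of all genes tested (13.7% called in either direction). Cxcl12, the ligand of Cxcr4 and Ackr3, was at 8531 to 11612 normalised counts in naïve and 8091 to 13994 in DMM libraries (log2 fold change 0.05, DESeq2 adjusted p = 0.895). Among the genes close to the chemokines but outside the naming rule, the platelet chemokines Pf4 and Ppbp were called lower (log2 fold changes -1.04 and -1.15, DESeq2 adjusted p = 8.82e-07 and 6.51e-13). All 8 megakaryocyte markers were called lower as well, with sums of 5020 to 8494 in naïve and 2886 to 3923 in DMM libraries and none at 0, and their part was not tested. Cmklr1, the chemerin receptor, was called higher (log2 fold change 0.60, DESeq2 adjusted p = 0.0147).

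Of the 11 G protein and effector genes, Gnai1, an inhibitory alpha subunit, was called higher (0.85, DESeq2 adjusted p = 5.27e-05). Of the 11 genes of leukocyte migration, Coro1a, an actin regulator of leukocytes, was called lower (-0.59, DESeq2 adjusted p = 0.00184). That call ended with edgeR, limma-voom, TMM factors, total count scaling and the replicate block, and without naïve 2, DMM 1, DMM 3 or DMM 4. Of the 14 genes that switch receptors off, 3 were called lower. These were Arrb2, an arrestin (-0.60), Rgs14 (-0.59) and Rgs18, a regulator of G protein signalling in platelets (-0.89), with DESeq2 adjusted p of 0.000398, 0.00436 and 0.000398. The calls of Arrb2 and Rgs14 ended with edgeR, and 1 gene of the list was called with edgeR, limma-voom or TMM factors and without naïve 2 or DMM 1. Of the 12 NF-kappaB genes, DESeq2 called 0 (2 at an unadjusted p under 0.05, and 0 called with edgeR), and Nfkbiz passed the adjusted p alone (log2 fold change 0.41, DESeq2 adjusted p = 0.0279). At any fold, 5 of the 11 G protein, 6 of the 11 migration and 6 of the 14 switch-off genes passed the adjusted p. Median log2 fold changes were -0.16, -0.44 and -0.36 in these lists. Of all genes tested, 22.6% passed at any fold. Rgs3, of the genes that switch receptors off, was higher at 0.51 (DESeq2 adjusted p = 0.000632), under the fold threshold.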

How the data were processed

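RNA-seq libraries of medial knee cartilage caps from 4 naïve and 4 DMM mice were analysed. The deposited table holds estimated counts per gene, which the authors made by trimming reads with Trimmomatic, pseudo-aligning with kallisto and summing transcripts with tximport. The labels name GRCh38 and the methods name GRCm38 beside an Ensembl release made on a later assembly, so the build is uncertain. The labels name an NEB low input kit and the methods a SMART-Seq kit, and strand use is not given in the sources used here. Of the values, 39.2% were not whole, and they were rounded before testing. kallisto divides reads between near-identical copies, which bears on Ccl21a, Ccl19 and Ccl27a.

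Under R version 4.3.3, DESeq2 version 1.42.0 was fitted to all genes and all 8 libraries without covariates. Its Wald test, default size factors and filters and unshrunken fold changes were used, with p-values adjusted by Benjamini-Hochberg over all genes. A gene was called at an adjusted p of 0.05 or less and 1.5-fold or more. Alternatives were edgeR's quasi-likelihood test (version 4.0.16), limma-voom (limma version 3.58.1), TMM factors, total count scaling, other filters, no fold threshold, a block for the replicate number and leaving out each library. Labels do not say that equal numbers share a litter or day, and each mouse gave 1 library, so p-values measure the spread between mice.

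On simulated data over 26189 genes for the DMM and naïve comparison, DESeq2 called 77 of 100 genes changed 2-fold and 94 of 100 changed 4-fold, with 18 unchanged genes called. The edgeR test called 64 and 93, with 8 unchanged genes. The changed genes were drawn only from genes above a minimum mean count, so these shares do not cover members with low counts.

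Values are given in every library for members that were called or had a mean of 100 normalised counts or more, members between 10 and 100 with a mean fold of 1.5 or more are named, and of the pathway lists the called genes are named, up to 4 per list. Some low members, Mmp8, receptors of the ligands described, Cxcl12, Nfkbiz and Rgs3 were named after their values were seen. The values of 1 member are not reported here, though it is in the counts over all members, and the figures leave it out. The members and lists were chosen with earlier results of these data known. Coordinates are from GENCODE vM21 (GRCm38), matched by gene identifier, and promoters from RefSeq (GRCm38.p6), in which Cxcl16 was not matched. Depth limits genes under about 10 counts, and all intervals over a count of 0 cover counting error only.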

Additional observations from a re-analysis of the deposited data

How the results depend on the processing

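Cxcl14, Cxcl16, Cx3cl1, Ackr2 and Ackr3 kept their calls in all 8 other settings and in all 8 fits that left out a library. The count of members called (7) was 12 with no fold threshold and 6 to 9 when a library was left out. The count called lower (1) was 0 with edgeR, with limma-voom and with total count scaling, 5 with no fold threshold and 0 to 3 when a library was left out (Ccr3 lost without naïve 2 or 4, Cxcl9 added without DMM 2, Ccl6 and Cxcr2 without naïve 4 or DMM 4, Cxcr4 without naïve 4). The count called over the pathway lists (8) was 5 with edgeR, limma-voom or TMM factors, 21 with no fold threshold and 4 to 14 when a library was left out (14 without naïve 4, 4 without DMM 1). Ccl21a was not tested by edgeR or limma-voom, nor with a minimum of 10 counts in 4 libraries. With libraries scaled by total count, the median over all genes went from -0.02 to 0.14 (log2), and the calls from 1377 higher and 1052 lower to 2030 and 489. Cxcl14 was then at 0.99 and Ccr3 at -0.67. In fits that gave an adjusted p, directions turned for members whose log2 fold change was near 0 and not past the test. These were Ccr9 (0.021) and Cx3cr1 (0.062) with total count scaling and, when a library was left out, Ccl5 (-0.081 to 0.18), Ccl25 (-0.037 to 0.096), Cxcr6 (-0.019 to 0.21) and Cx3cr1 (-0.19 to 0.011). The causes were not tested.

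With the replicate number as a block, 6 members were called (5 higher, 1 lower), Ccl21a missed the threshold (log2 fold change 5.51, DESeq2 adjusted p = 0.0542), no other member's call changed, and 2081 genes were called in all. Deviations from the group means of libraries with the same number correlated at 0.0413, 0.0624, -0.135 and 0.114, and 1 of 4 libraries correlated best with its own number. With so few libraries, this cannot decide whether equal numbers share a litter or day.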
